A study of Homo sapiens with 4 samples.

Results

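OVCAR-3 and SKOV-3 are established ovarian cancer cell lines, and the promoters that carried acetylated histone H3 lysine 27 (H3K27ac) were compared between them. Every protein-coding gene of the GENCODE annotation on GRCh37 (hg19) outside chromosomes X and Y was scored, and a gene was called marked when an H3K27ac peak overlapped the 1 kb on either side of any of its transcript starts. Of the 19229 genes scored, 5953 were marked in both lines, 5875 in OVCAR-3 only, 284 in SKOV-3 only and 7117 in neither. These counts are 31% of the genes in the class marked in both lines, 30.6% in the OVCAR-3-only class, 1.48% in the SKOV-3-only class and 37% in the class marked in neither. The 4 lines of the series, which also include the colon cancer line COLO-205 and the prostate cancer line DU-145, were profiled by chromatin immunoprecipitation and sequencing with the same antibody. The labels give no treatment, and name an RPMI medium for OVCAR-3 and a McCoy's medium for SKOV-3, each with serum. There is 1 library per line, so no spread between replicates exists, no difference below was tested, and a difference between lines cannot be told apart from a difference between their libraries.

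H3K27ac is laid down by the acetyltransferases p300 and CBP on the nucleosomes that flank active promoters and enhancers, and its loss accompanies silencing. At a promoter it accompanies transcription, and the set of acetylated promoters differs between cell types. High-grade serous ovarian carcinomas resemble the epithelium of the Mullerian duct and its derivative, the fallopian tube, and ovarian cancer lines range from an epithelial to a mesenchymal state. A narrow peak list holds only sites that passed a threshold, and a gene without a peak is a gene with no site past that threshold, not one shown to lack the mark.

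Both lines marked mostly promoters that are rich in CpG dinucleotides, and the sequence upstream of 5 starts is printed as examples of genes that the classes turn on. The stretches below lie directly upstream of the canonical start and were taken from GRCh37 up to 150 bases or to the nearest annotated exon, written 5′ to 3′ on the strand of the gene with each CpG in capitals.
CCNE1, chr19:30302748-30302897, plus strand: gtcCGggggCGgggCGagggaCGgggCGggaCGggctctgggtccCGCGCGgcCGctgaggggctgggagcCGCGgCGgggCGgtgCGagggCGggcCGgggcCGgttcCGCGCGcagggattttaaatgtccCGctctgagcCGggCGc
PAX8, chr2:114036499-114036648, minus strand: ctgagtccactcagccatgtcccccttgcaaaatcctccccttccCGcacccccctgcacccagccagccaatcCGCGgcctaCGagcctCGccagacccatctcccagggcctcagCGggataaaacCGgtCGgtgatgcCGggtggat
MUC16, chr19:9092019-9092168, minus strand: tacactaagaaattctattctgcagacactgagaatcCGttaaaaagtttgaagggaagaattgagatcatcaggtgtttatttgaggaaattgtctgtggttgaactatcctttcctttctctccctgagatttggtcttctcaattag
VIM, chr10:17270090-17270239, plus strand: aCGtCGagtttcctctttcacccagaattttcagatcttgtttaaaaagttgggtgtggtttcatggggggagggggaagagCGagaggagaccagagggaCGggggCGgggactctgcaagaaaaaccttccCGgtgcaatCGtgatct
ZIC2, chr13:100633888-100634037, plus strand: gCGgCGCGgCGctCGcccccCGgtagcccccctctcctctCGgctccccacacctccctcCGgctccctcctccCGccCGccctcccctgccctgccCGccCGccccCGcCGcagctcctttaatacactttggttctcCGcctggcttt
CCNE1, which encodes the G1 cyclin E1, and PAX8, a transcription factor of Mullerian epithelium, were marked in both lines. MUC16, the gene of the serum marker CA-125, was marked in OVCAR-3 only. VIM, the mesenchymal intermediate filament vimentin, and ZIC2, a zinc finger regulator of neural development, were marked in SKOV-3 only. The stretch of CCNE1 held 24 CpG, that of ZIC2 15, PAX8 9, VIM 7 and MUC16 1. The 5 were chosen for their genes and do not represent the CpG content of their classes.

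Both peak lists were examined first, and they differed in length before any gene was scored. OVCAR-3 had 76093 peaks and SKOV-3 14001, and 20299 autosomal peaks of OVCAR-3 (27.1%) and 7511 of SKOV-3 (54.7%) overlapped a promoter window. OVCAR-3 marked 11828 genes (61.5%) and SKOV-3 6237 (32.4%), beside 11919 (62%) in DU-145 and 10162 (52.8%) in COLO-205. Most SKOV-3 promoters lay within the OVCAR-3 set, since 95.4% of the genes marked in SKOV-3 were marked in OVCAR-3, while 50.3% of the genes marked in OVCAR-3 were marked in SKOV-3. When the OVCAR-3 list was cut to its strongest 14001 peaks, 4930 genes were marked in both, 2560 in OVCAR-3 only and 1307 in SKOV-3 only, and 79.0% of the SKOV-3 genes were marked in OVCAR-3. Hence the size of the SKOV-3-only class depends on the number of OVCAR-3 peaks kept, and the 284 genes are those without any OVCAR-3 peak at the authors' threshold. Depth differed as well, with 34214267 tags computed from the OVCAR-3 list and 22398822 from the SKOV-3 list. Lowering the OVCAR-3 pileups to the tag number of SKOV-3 left 11633 genes marked in OVCAR-3, with 5927 in both lines, 5706 in OVCAR-3 only and 310 in SKOV-3 only.

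The strongest OVCAR-3 promoters were the ones most often marked in SKOV-3. Strength is given by the −log10 q of the best promoter peak of a gene, which depends on depth and is therefore compared within a library. Among the 11828 genes of OVCAR-3, split into 10 groups of equal size by this value, the share also marked in SKOV-3 was 14.1% in the weakest group, 46.6% in the fifth and 87.7% in the strongest. The same groups went from 59.8% to 96.0% in DU-145 and from 46.6% to 91.2% in COLO-205, and the range was widest in SKOV-3. Without chromosome 7, where SKOV-3 had few peaks, the SKOV-3 shares went from 14.5% to 88.0%.

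**Figure D1:**
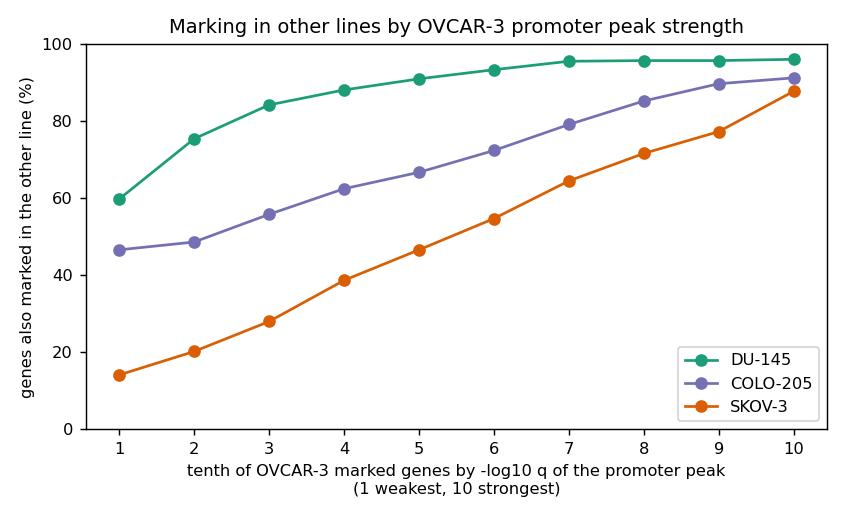
Share of OVCAR-3-marked genes that were also marked in SKOV-3, DU-145 or COLO-205 (y axis, %), in 10 groups of genes ordered by the −log10 q of the OVCAR-3 promoter peak (x axis, weakest to strongest). The SKOV-3 line climbs from 14.1% to 87.7% and lies below the other lines in every group, with DU-145 highest.

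Genes of the OVCAR-3-only class had weaker OVCAR-3 peaks than genes marked in both lines. The median fold enrichment over the local background was 5.805 in the OVCAR-3-only class (quartiles 4.40 and 8.04) and 9.38 in the class marked in both (6.80 and 12.9). The median −log10 q was 25.8 and 66.7. In SKOV-3 the contrast was smaller on the fold scale, with a median of 4.93 in the SKOV-3-only class (4.11 and 6.14) and 5.26 in the class marked in both (4.36 and 6.60). Most genes of a single-line class had no peak of the other line nearby, as had most genes marked in neither line. The nearest SKOV-3 peak lay a median of 69445 bp from the starts of an OVCAR-3-only gene, and the nearest OVCAR-3 peak a median of 31226 bp from those of a SKOV-3-only gene. The nearest peak of the other line was over 5 kb away for 5570 of the 5875 OVCAR-3-only genes and 250 of the 284 SKOV-3-only genes, which is 94.8% and 88.0%. Among genes marked in neither line, 97.1% had no SKOV-3 peak and 88.5% no OVCAR-3 peak within 5 kb. These distances concern peaks past the threshold and do not show how close a promoter came to it. In the last 100 bp inside the window limit, 41 genes had their nearest OVCAR-3 peak and 18 their nearest SKOV-3 peak, and in the first 100 bp outside it there were 24 and 18.

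Over the 5953 genes marked in both lines, the fold enrichments of the best peaks had a Spearman correlation of 0.47, given as a description across genes that share a library and neighbouring windows. The 10 genes with the highest rank in their weaker list were spread over several chromosomes. Their leading promoter was the one between MAP7D1, a microtubule-associated protein, and TRAPPC3, a subunit of a vesicle tethering complex, which share 1 peak in each line, of fold 26.6 in OVCAR-3 and, in SKOV-3, of 18.8. The others were the shared promoter of PSMA7, a proteasome subunit, and SS18L1, a chromatin regulator of neurons, and those of ATXN2, CHTOP, DYRK1A, GMEB2, MYL12B and SKP1. ATXN2, an RNA-binding protein, had folds of 21.97 and 15.2, and SKP1, a core subunit of ubiquitin ligases, 21.3 and 12.7. A position in a list is given below as a rank percentile, where 100 would be the strongest peak of that list. The OVCAR-3 list is the longer, and 89.2% of the genes marked in both ranked higher in it than in the SKOV-3 list. The median difference was 20.4 percentile points (quartiles 5.98 and 42.3), and each pair of percentiles below is to be read against this shift. Over the same genes the median −log10 q was 66.7 in OVCAR-3 and 14.2 in SKOV-3, and the median fold 9.38 and 5.26. Each pair of −log10 q or fold values is likewise to be read against these medians. The largest rank differences in favour of SKOV-3 were at PPARG, a nuclear receptor of lipid metabolism, at SOCS6, PAPLN and PRXL2C, and at AXL, a receptor tyrosine kinase of the mesenchymal state. AXL had a fold of 2.64 at percentile 16.8 in the OVCAR-3 list and a fold of 8.26 at percentile 92.5 in that of SKOV-3. In the other direction stood ZFP36, a decay factor of AU-rich mRNAs, with a fold of 26.4 at percentile 99.98 of the OVCAR-3 list and of 2.62 at percentile 0.07 of the SKOV-3 list. The OVCAR-3 peak there is 8439 bp wide with its summit 3872 bp from a start, and the call of ZFP36 as marked in both was lost when the summit had to lie in the window or at a −log10 q of at least 5. EID2, MREG, STK38L and UBE4B followed, and they too lost the call at a −log10 q of at least 5. On the SKOV-3 side PPARG, SOCS6, PAPLN and PRXL2C were no longer marked in both at the tag number of SKOV-3.

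**Figure D2:**
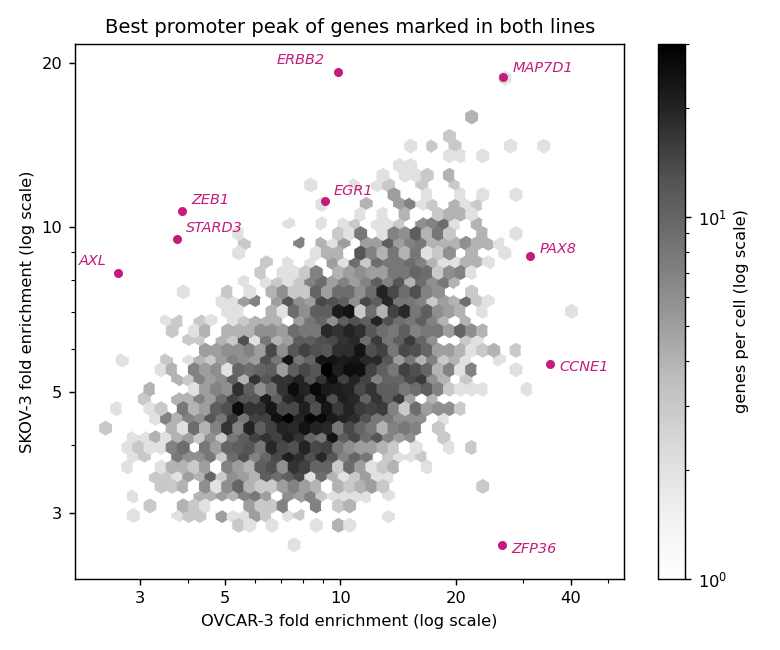
Fold enrichment of the best promoter peak of each gene marked in both lines, in OVCAR-3 (x axis, log scale) and SKOV-3 (y axis, log scale), with darker cells holding more of the 5953 genes and some named genes marked by points. ERBB2, ZEB1, STARD3 and AXL lie above the cloud, CCNE1, PAX8 and ZFP36 to its right, and MAP7D1 at the upper right end.

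Promoters of the epithelial state had the largest gap between the lines among the 25 gene lists examined. Of 35 epithelial genes, OVCAR-3 marked 34 and SKOV-3 13, which is 97.1% against 61.5% of all genes in OVCAR-3 and 37.1% against 32.4% of all genes in SKOV-3. The classes were 13 marked in both, 21 in OVCAR-3 only, 0 in SKOV-3 only and 1, OVOL1, in neither. DU-145 marked 29 of the 35 and COLO-205 32. The 21 OVCAR-3-only genes included transcription factors, a splicing regulator and junction proteins. GRHL2, a grainyhead factor, had a −log10 q of 160 and a fold of 19.3 in OVCAR-3, with the nearest SKOV-3 peak 68795 bp away. ELF3, an epithelial ETS factor, had 132 and 16.9. ESRP1, a splicing regulator of epithelial isoforms, had 117 and 13.3, whereas its paralogue ESRP2 was marked in both lines, with a −log10 q of 91.6 in OVCAR-3 and 15.3 in SKOV-3. GRHL2, ELF3 and ESRP1 had no SKOV-3 peak within 10 kb of a start.

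The adhesion genes of the same list had OVCAR-3 peaks of moderate strength. CDH1, which encodes E-cadherin, had a −log10 q of 21.6 and a fold of 5.53, and EPCAM, an epithelial adhesion molecule, 60.5 and 8.49. The tight junction genes CLDN3, CLDN4, CLDN7, OCLN, MARVELD2 and MARVELD3 were all OVCAR-3 only, with −log10 q between 16.2 at CLDN3 and 85.1 at CLDN4. CLDN3 and CLDN4 lie on chromosome 7, where SKOV-3 marked few genes of any kind. The epithelial genes that SKOV-3 did mark included keratins and protease inhibitors. KRT8, KRT18, KRT19 and KRT7, the simple-epithelium keratins, had SKOV-3 values of −log10 q of 16.9, 15.6, 6.05 and 5.38, beside 167, 89.5, 28.6 and 103 in OVCAR-3. SPINT2, an inhibitor of membrane proteases, had 22.97 in SKOV-3 and 275 in OVCAR-3. KRT7, SPINT1 and SPINT2 changed class with 1 start per gene, and KRT7 also with protein-coding transcripts only. With equal numbers of peaks in both lists, 11 of the 35 were marked in both, 15 in OVCAR-3 only and 2 in SKOV-3 only, beside 25.6%, 13.3% and 6.80% of all genes. At a −log10 q of at least 10 there were 8, 25 and 0, beside 21.98%, 34.4% and 0.894% of all genes. KRT7, KRT19 and SPINT1 were among those that changed class there.

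Promoters of the mesenchymal state had their lowest share in OVCAR-3 at the authors' threshold. Of 34 mesenchymal genes, OVCAR-3 marked 9 (26.5%) and SKOV-3 15 (44.1%), against 61.5% and 32.4% of all genes, while COLO-205 and DU-145 each marked 14 (41.2%). The classes were 7 in both, 2 in OVCAR-3 only, 8 in SKOV-3 only and 17 in neither, so 8 of the 284 SKOV-3-only genes came from this list. VIM had 4 SKOV-3 peaks in its windows, the best with a −log10 q of 34.8 and a fold of 9.06, and its nearest OVCAR-3 peak was 26483 bp from a start. SPARC, a matricellular protein, had a −log10 q of 12.7, TWIST2, a factor of epithelial-mesenchymal transition, 12.3, COL3A1 11.2, CAV1 9.25, THY1 8.55, COL5A1 8.24 and TWIST1 5.61. The calls at SPARC, COL3A1 and THY1 rest on starts other than the canonical one, and were lost with protein-coding transcripts only and with 1 start per gene. The peak at VIM was the strongest of the 8, and the others lay below the median −log10 q of 14.2 of the SKOV-3 peaks at genes marked in both lines. TWIST1 and CAV1 are 2 of the 3 SKOV-3-only genes of chromosome 7, and the third is HOXA10.

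ZEB1, a repressor of epithelial genes that binds E-boxes, was marked in both lines but stood at different ranks. Its best peak had a fold of 10.7 and a −log10 q of 34.0 in SKOV-3, at percentile 95.2 of that list, and a fold of 3.87 and a −log10 q of 9.96 in OVCAR-3, at percentile 43.4. FN1, COL6A2, CAV2, LGALS1 and S100A4 were also marked in both. S100A4, a calcium-binding protein of motile cells, had a −log10 q of 119 in OVCAR-3 and 14.9 in SKOV-3, at percentiles 97.9 and 71.4, a difference within the quartiles of all genes marked in both. COL1A1 and SNAI1, another E-box repressor, were OVCAR-3 only, with a −log10 q of 18.4 and 41.8. Neither line marked CDH2, SNAI2, ZEB2, PRRX1, FAP, DCN or LUM, the gene of the matrix proteoglycan lumican. With equal numbers of peaks, 13 of the 34 were SKOV-3 only, 2 were marked in both and 1 in OVCAR-3 only, as AXL, CAV2, COL6A2, FN1 and ZEB1 lost their OVCAR-3 peak. Of all genes 6.80%, 25.6% and 13.3% were in these classes. At a −log10 q of at least 10 there were 2 in both, 5 in OVCAR-3 only and 6 in SKOV-3 only, beside 21.98%, 34.4% and 0.894% of all genes.

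**Figure D3:**
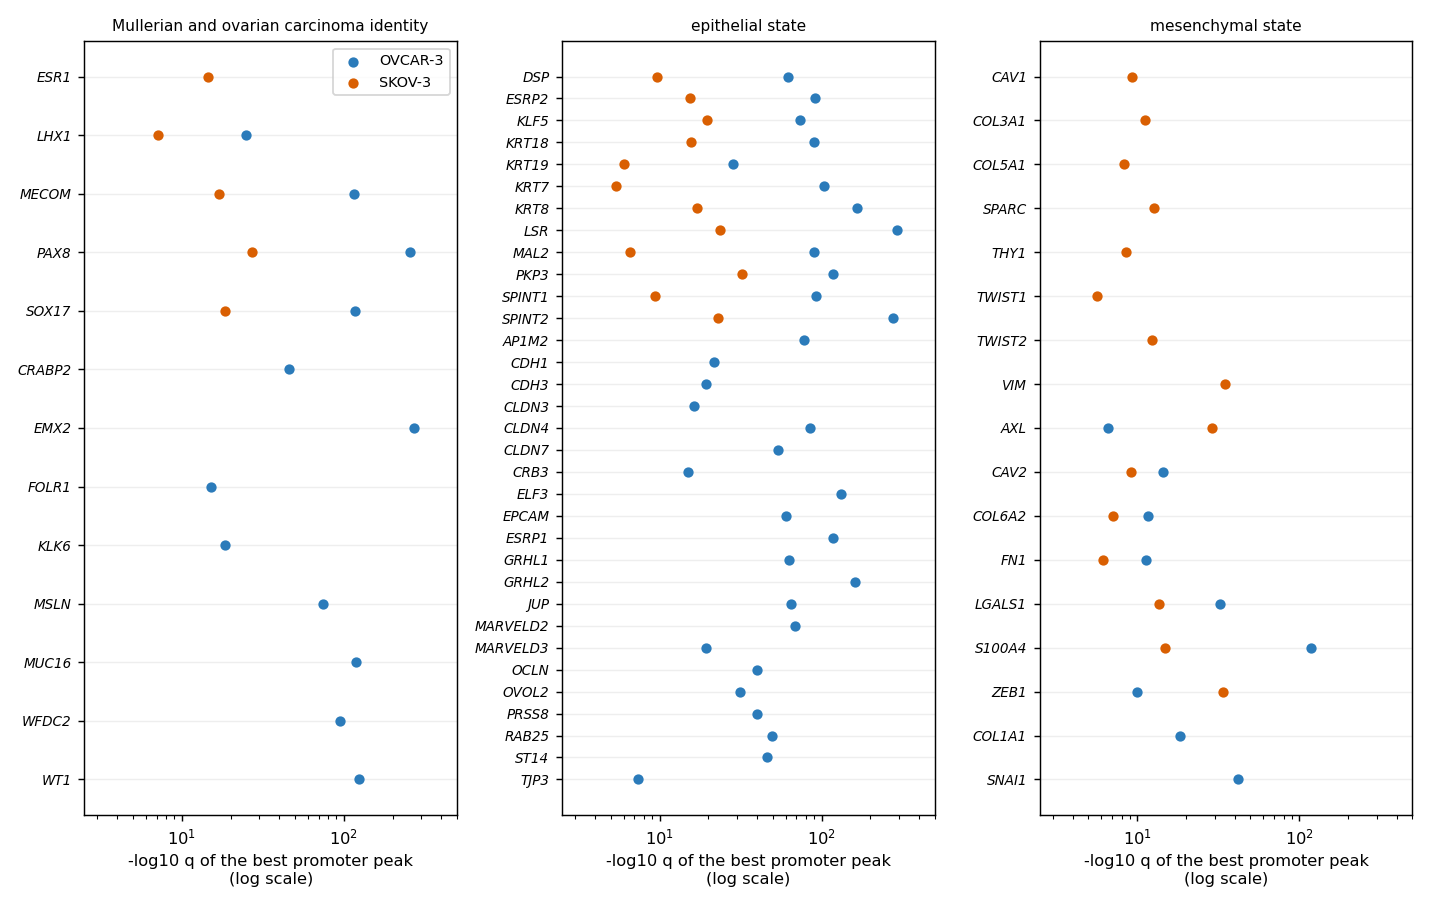
The −log10 q of the best promoter peak (x axis, log scale) for marked genes of the ovarian identity, epithelial and mesenchymal lists, with OVCAR-3 in blue and SKOV-3 in orange; a missing point means no peak in the gene's windows, and values are not scaled between libraries. Blue points alone fill the lower part of the first and second panels, and orange points alone the upper part of the third, from CAV1 to VIM.

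The ovarian label was checked against 18 genes of Mullerian and ovarian carcinoma identity. OVCAR-3 marked 12 of them and SKOV-3 5, which is 66.7% and 27.8%, close to the shares of all genes, and COLO-205 marked 9 and DU-145 8. PAX8, SOX17, MECOM and LHX1, transcription factors of the reproductive tract epithelium or its tumours, were marked in both. PAX8 had a fold of 31.3 in OVCAR-3 and 8.86 in SKOV-3, and SOX17 16.99 and 6.93. The 8 genes marked in OVCAR-3 only were WT1, EMX2, MUC16, MSLN, WFDC2, FOLR1, CRABP2 and KLK6. EMX2, a homeobox factor of the urogenital tract, had a −log10 q of 270 and a fold of 34.9, with the nearest SKOV-3 peak 99596 bp away. WT1, a factor of serous carcinoma, had 124 and 20.0, MUC16 118 and 24.2, and WFDC2, the gene of the serum marker HE4, 94.1 and 10.1. The SKOV-3-only member was ESR1, oestrogen receptor alpha, with a −log10 q of 14.6. Its call rests on a start other than the canonical one and was lost with 1 start per gene.

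Markers of blood, endothelium, nerve and muscle were mostly without a peak, beside 61.5% of all genes marked in OVCAR-3 and 32.4% in SKOV-3. None of 15 blood cell genes was marked in either line, 1 of 8 endothelial genes was marked in OVCAR-3 (ERG) and 0 in SKOV-3, and 2 of 11 neural and muscle genes in OVCAR-3 (RBFOX3 and SNAP25) and 0 in SKOV-3. Of 10 colon genes OVCAR-3 marked 2 and SKOV-3 1, and COLO-205 marked 7. Of 8 prostate genes OVCAR-3 marked 4 (50%), SKOV-3 1, COLO-205 4 and DU-145 3. With equal numbers of peaks the colon and prostate lists each had 0 genes in both, 1 in OVCAR-3 only and 1 in SKOV-3 only. The shares of all genes there were 25.6%, 13.3% and 6.80%. CDX2, VIL1 and HNF4A of the colon and KLK3 of the prostate had no promoter peak in either line.

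The predicted regulators of the lines were examined because the study infers master regulators of each line from motifs enriched near its overexpressed genes. It kept factors that were themselves overexpressed in the line and related to the cancer type. Among them were ZEB1 for SKOV-3 and EGR1 and FOS for OVCAR-3. All 3 promoters were marked in both lines. EGR1, an immediate early zinc finger factor, had a fold of 9.11 in OVCAR-3 and 11.2 in SKOV-3, at percentiles 95.02 and 99.5. FOS, a subunit of the AP-1 factor, had 18.96 and 8.31, at percentiles 99.6 and 95.01. Of the 14 regulators listed for the 4 lines, 7 were marked in both, those marked in OVCAR-3 only included ELF3 and HOXB13, and FOSL1 and PITX1 were marked in SKOV-3 only, beside 31% of all genes in both, 30.6% in OVCAR-3 only and 1.48% in SKOV-3 only. FOSL1, the AP-1 subunit FRA-1, had a SKOV-3 fold of 6.96 and a −log10 q of 32.6, and its nearest OVCAR-3 peak was 8986 bp from a start. Among 15 AP-1 genes FOSL1 was the single SKOV-3-only member, while 7, including FOS, FOSL2 and JUN, were marked in both, ATF3 and MAFK in OVCAR-3 only and 5 in neither. These are 46.7%, 13.3% and 6.67% of the 15 in both, OVCAR-3 only and SKOV-3 only.

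The locus of ERBB2, the receptor tyrosine kinase HER2, carried the promoter peak with the highest −log10 q of any gene marked in SKOV-3. ERBB2 had 16 SKOV-3 peaks in its windows, the best with a fold of 19.3 and a −log10 q of 136, and 2 OVCAR-3 peaks, the best with 9.89 and 71.1. COLO-205 had 9 peaks there and DU-145 3. Its neighbour PGAP3, a lipid remodelling enzyme of GPI anchors, had a SKOV-3 fold of 19.5, and STARD3, a cholesterol transporter, 9.50 in SKOV-3 and 3.75 in OVCAR-3. Further members of the cluster were SKOV-3 only. TCAP, a sarcomere protein, and PNMT, the enzyme that makes adrenaline, share 1 SKOV-3 peak of 8823 bp with a −log10 q of 43.5. Its summit is 2392 bp from a start of TCAP and 5024 bp from one of PNMT, and TCAP lost its SKOV-3-only call when the summit had to lie in the window or the window was 2 kb. PPP1R1B and NEUROD2, genes of neurons, had 15.0 and 13.3. In the 143.756 kb from NEUROD2 to GRB7 (chr17:37759789-37903544), SKOV-3 had 112 peaks, 0.800% of its whole list, and they covered 61.3% of the bases. OVCAR-3 had 9 peaks there covering 3.22%, DU-145 10 covering 6.49% and COLO-205 51 covering 16.6%. The median recovered background at these peaks was 3.64 tags in SKOV-3 and 10.2 in OVCAR-3, and the median pileup 29 and 58, so the background in SKOV-3 there was below the 4.95 tags of its whole list. The part of the background in the numbers of peaks was not tested.

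Of the 16 genes of the ERBB list, 9 were marked in both lines, 2 in OVCAR-3 only, 4 in SKOV-3 only and 1 in neither, which makes it the list with the highest SKOV-3 share, 81.2% against 32.4% of all genes. Over all genes the shares were 31% in both, 30.6% in OVCAR-3 only and 1.48% in SKOV-3 only. EGFR, on chromosome 7, and ERBB3, another receptor of the family, were OVCAR-3 only with a −log10 q of 32.8 and 91.7. ERBB4, the fourth receptor, was marked in both, with an OVCAR-3 fold of 22.02 and a SKOV-3 fold of 4.96. With equal numbers of peaks, 7 of the 16 were SKOV-3 only, as GRB7, MIEN1 and STARD3 joined them, where 6.80% of all genes were SKOV-3 only.

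Genes of the G1 phase were nearly all marked in OVCAR-3, DU-145 and COLO-205. Of 21 cyclins, kinases, inhibitors, E2F factors and pocket proteins, OVCAR-3 marked 19 (90.5%) and SKOV-3 10 (47.6%), against 61.5% and 32.4% of all genes, and COLO-205 marked 19 and DU-145 20. CCNE1 had 6 peaks with a best fold of 35.2 and a −log10 q of 329 in OVCAR-3, at percentile 99.96, and 2 peaks with 5.62 and 11.7 in SKOV-3, at percentile 58.1. Its rank difference of 41.9 points lies just below the upper quartile of all genes marked in both. CDKN2A, which encodes the inhibitor p16, had a fold of 41.7 and a −log10 q of 194 in OVCAR-3 and CDKN2B, its neighbour, 12.0 and 81.5. The nearest SKOV-3 peaks to their starts were 410184 and 445988 bp away. CDK2, CDK4, CDK6, CDKN1B, CCNE2, E2F2 and RBL1 were also OVCAR-3 only. CCND1, which encodes cyclin D1, was marked in both with folds of 12.2 and 6.88, RB1 with 6.07 and 6.38, and CDKN1A, which encodes p21, was marked in neither.

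The strongest OVCAR-3-only promoters included several genes of chromosomes 19 and 11. The 15 with the highest −log10 q and no SKOV-3 peak within 5 kb were led by DYRK1B, a kinase, which shares its peak of −log10 q 392 and fold 27.3 with a gene model that has no symbol. These lie on chromosome 19, as do TIMM50, FBL, TMC4, LENG1 and ZNF331, which makes 7 of the 15, where 438 of the 5875 OVCAR-3-only genes lie on chromosome 19 and 323 on chromosome 11. These chromosomes also had the highest median folds over all OVCAR-3 peaks, 6.49 and 6.25 against 5.37, and the part of this in the order of the genes was not tested. THRSP, a regulator of lipogenesis, was reached by the peak with the highest fold of the class, 53.4, but that peak is 16856 bp wide with its summit 12530 bp from a start, and THRSP lost its call when the summit had to lie in the window. ALG8, USP35 and KCTD21 lie on chromosome 11 as well. SPON1, an extracellular matrix protein of chromosome 11, had a −log10 q of 372, LZTS2 311 and BMP7, a ligand of the TGF-beta family, 254. Among these, EMX2 was the gene of ovarian identity. Over the 15 genes the nearest SKOV-3 peak was between 15582 bp away at THRSP and 210912 bp away at ZNF331.

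The SKOV-3-only class was small and its strongest members had varied roles. Its 284 genes had 269 distinct best peaks. TM6SF2, a lipid transport protein of the liver, was first with a −log10 q of 51.5 and a fold of 14.9 from 5 peaks, and the nearest OVCAR-3 peak was 46720 bp away. HOXB8 followed with 50.2, although an OVCAR-3 peak lay 2548 bp from its start. Among those without an OVCAR-3 peak within 5 kb were ZNF880 with 41.1, ZNF43 with 35.6, VIM with 34.8, ZIC2 with 34.8, FOSL1 with 32.6 and DOCK5, an exchange factor for Rac, with 32.3. SALL1, a zinc finger factor of kidney development, had 26.998 with the nearest OVCAR-3 peak 781544 bp away, and ZIC2 34.8 with 374692 bp. CAVIN3, a protein of caveolae, had 29.2, SYDE1 30.9, and CENPB, a centromere protein, 27.6. GOLGA8M, with 27.8, belongs to a family of near-identical copies and is uncertain.

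The other lines shared most promoters of the class marked in both and fewer of the single-line classes. Of the genes marked in both ovarian lines, 96.9% were marked in DU-145 and 86.1% in COLO-205, and 67 (1.13%) in neither of those. For the OVCAR-3-only class the shares were 77.9% and 53.2%, with 774 genes (13.2%) in neither. For the SKOV-3-only class they were 66.2% and 53.9%, with 52 genes (18.3%) in neither, among them TM6SF2, TCAP, PNMT, ESR1, ZNF135, ZSCAN1, TWIST1 and COL3A1. Over all genes scored the shares were 62.0% in DU-145 and 52.8% in COLO-205, with 28.0% in neither. The COLO-205 shares of the single-line classes thus lay near that of all genes. Genes without a peak in either ovarian line were marked in DU-145 in 19.5% and in COLO-205 in 24.7% of cases. VIM, FOSL1, CAV1 and DOCK5 had peaks in DU-145, with a −log10 q of 43.7, 33.9, 30.5 and 64.0.

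Zinc finger genes of chromosome 19 made up a large share of the SKOV-3-only class. Of 267 such genes, matched by current or older symbol and mostly encoding KRAB repressors, 34 (12.7%) were SKOV-3 only, against 1.48% of all genes, 91 were marked in both, 72 in OVCAR-3 only and 70 in neither. OVCAR-3 marked 61.0% of them and SKOV-3 46.8%, beside 62.2% in DU-145 and 33.7% in COLO-205. The SKOV-3-only members included ZNF880, ZNF43, ZNF135, ZNF91, ZNF93, ZNF85 and ZNF257. These genes are paralogues in tandem clusters, so a read from one copy can be placed on another. At the other end, ZNF780A had a −log10 q of 260 in OVCAR-3 and 6.89 in SKOV-3, and ZNF566 220 and 26.4. With equal numbers of peaks 64 of the 267 were SKOV-3 only and 23 OVCAR-3 only, where the shares of all genes were 6.80% and 13.3%.

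The HOX clusters, which encode positional homeobox factors, differed in marking between clusters. Of 39 genes, 7 were marked in both (17.9%), 12 in OVCAR-3 only (30.8%), 7 in SKOV-3 only (17.9%) and 13 in neither, against 31%, 30.6% and 1.48% of all genes in the first 3 classes. HOXB5, HOXB6, HOXB8 and HOXB9 were SKOV-3 only, with a −log10 q of 30.2 at HOXB5 and 29.7 at HOXB6, and HOXB7 was marked in both, with 36.9 in OVCAR-3 and 30.3 in SKOV-3. HOXD9 and HOXD13 were SKOV-3 only too. Of the 12 OVCAR-3-only members 7 lie in the HOXA cluster on chromosome 7, where 48.9% of all genes were OVCAR-3 only, and HOXA5 had 148 and HOXA2 94.0. Of the other HOXA genes HOXA3 was marked in both, HOXA10 in SKOV-3 only and 2 in neither. With equal numbers of peaks 4 HOX genes were OVCAR-3 only and 9 SKOV-3 only, beside 13.3% and 6.80% of all genes. At a −log10 q of at least 10 there were 10 and 4, beside 34.4% and 0.894%.

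**Figure D4:**
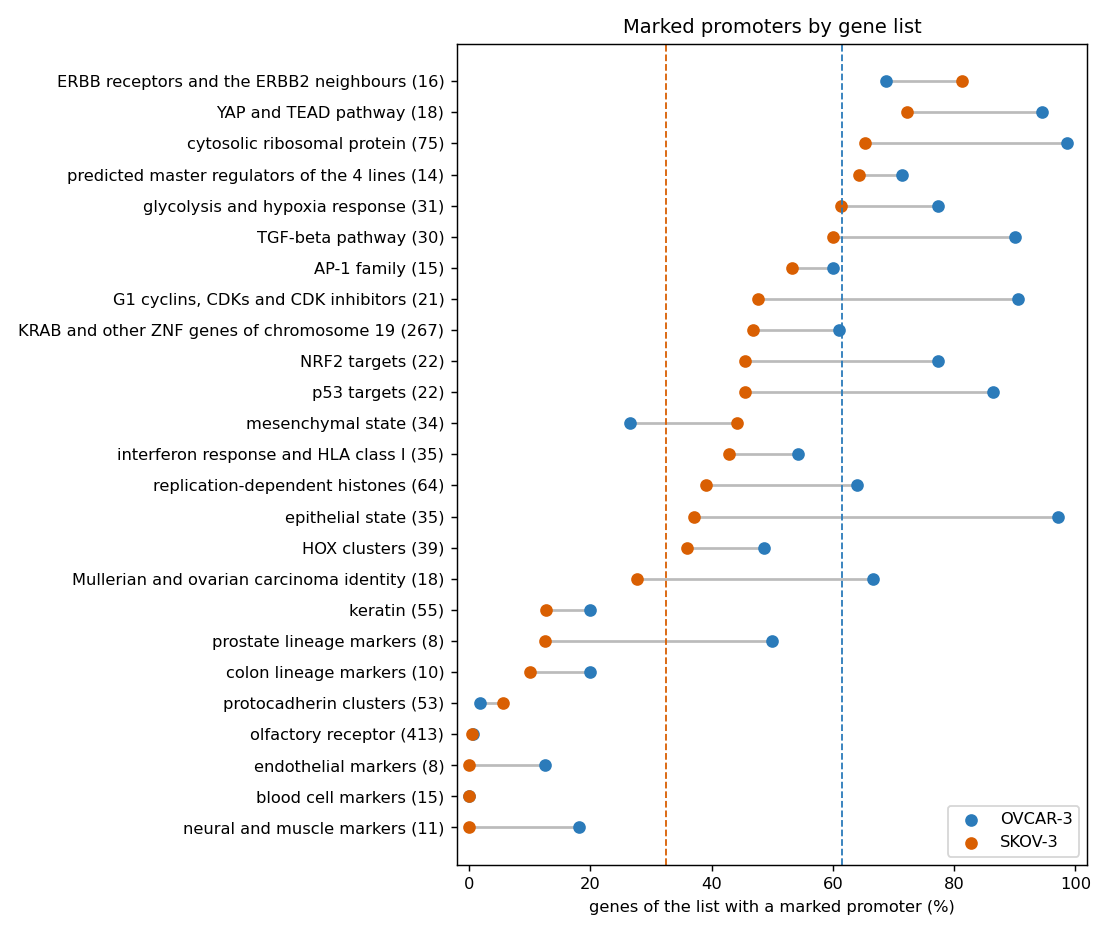
Share of the genes of each of 25 lists with a marked promoter (x axis, %) in OVCAR-3 (blue) and SKOV-3 (orange), with the number of genes scored in brackets and dashed lines at the shares of all genes, 61.5% and 32.4%. SKOV-3 lies to the right of OVCAR-3 in the ERBB, mesenchymal and protocadherin lists, and the longest gap is in the epithelial list, from 37.1% to 97.1%.

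Genes that nearly every cell uses were not marked uniformly. Of 75 cytosolic ribosomal protein genes OVCAR-3 marked 74 (98.7%) and SKOV-3 49 (65.3%), against 61.5% and 32.4% of all genes, DU-145 72 and COLO-205 62. RPS9 had a −log10 q of 352 in OVCAR-3 and 10.49 in SKOV-3, and RPS16 328 and 7.60. RPSA, RPL15 and RPS12, with 112, 103 and 108 in OVCAR-3, had no SKOV-3 promoter peak. GAPDH, a glycolytic enzyme used as a loading control, had a −log10 q of 104 and a fold of 8.26 in OVCAR-3 and its nearest SKOV-3 peak was 82247 bp away. The SKOV-3 list thus lacked peaks at some promoters that growing cells in general use, although it held a larger share of the ribosomal genes than of all genes.

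Chromosome 7 stood apart in SKOV-3. Of its 933 genes, SKOV-3 marked 49 (5.25%), against 33.8% of the genes on the other autosomes, while OVCAR-3 marked 53.8%, DU-145 58.1% and COLO-205 37.1% of them. The classes were 46 in both, 456 in OVCAR-3 only, 3 in SKOV-3 only and 428 in neither, and SKOV-3 had 65 peaks on the whole chromosome against 1717 in OVCAR-3. The recovered background at its SKOV-3 peaks had a median of 6.53 tags, against 4.95 at the peaks of the other autosomes, the pileup 33 against 30 and the fold 4.54 against 5.35. In OVCAR-3 the background was 6.58 on chromosome 7 and 4.12 elsewhere, with a fold of 5.50 and 5.36. The part of the background in the missing peaks was not tested. Without chromosome 7, 5907 genes were marked in both, 5419 in OVCAR-3 only, 281 in SKOV-3 only and 6689 in neither.

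OVCAR-3-only genes were most frequent on chromosomes 7 (48.9%) and 3 (47.6%) and least frequent on 18 (18.0%) and 16 (20.8%). Chromosome 14 had the highest share marked in both, 46.4%. SKOV-3-only genes made up 3.76% of chromosome 18, 3.45% of chromosome 19, where 51 of the 284 lie, and 2.80% of chromosome 13, and there were 0 among the 229 genes of chromosome 21.

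**Figure D5:**
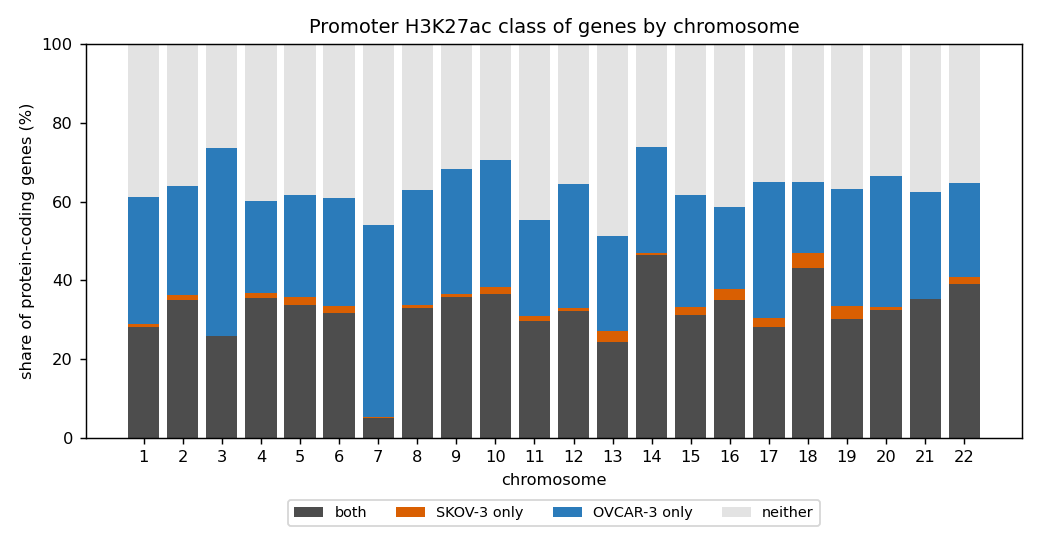
Share of protein-coding genes (y axis, %) marked in both lines, in SKOV-3 only, in OVCAR-3 only or in neither, for each autosome (x axis). On chromosome 7 the class marked in both shrinks to 4.93%, and the OVCAR-3-only class is widest there and on chromosome 3.

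The classes also differed in sequence features that the rule did not use. A promoter was called CpG-rich when the 300 bp from 250 bp before to 50 bp after the canonical start had an observed to expected CpG ratio of at least 0.6 and a GC content of at least 50%. This held for 90.1% of genes marked in both lines, 78.4% of the OVCAR-3-only class, 72.5% of the SKOV-3-only class and 34.5% of those marked in neither, against 65.7% of all genes. Among CpG-rich genes 53.8% of those marked in OVCAR-3 were also marked in SKOV-3, and among the others 31.7%. Genes marked in both had a median of 8 annotated starts, OVCAR-3-only genes 6, SKOV-3-only genes 5 and genes marked in neither 3. A gene with more starts has more windows in which a peak can fall. Windows shared with another gene were found for 36.9% of genes marked in both and 16.2% of SKOV-3-only genes.

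The letters bound by 3 predicted regulators were searched in the same 300 bp on both strands. CAGGTG, the E-box of ZEB1 and of other E-box factors, was present in 16.0% of promoters marked in both, 21.7% of OVCAR-3-only, 11.6% of SKOV-3-only and 24.0% of those marked in neither, against 20.6% of all promoters. It occurs in the printed stretch of MUC16. TGANTCA, the AP-1 element of FOS that covers TGACTCA and TGAGTCA, was present in 3.65%, 3.78%, 5.28% and 8.11%, against 5.36% of all. GCGTGGGCG, the element of EGR1, which itself contains CpG, was present in 1.44%, 1.33%, 0.70% and 0.90%, against 1.20% of all. The SKOV-3-only shares rest on 33, 15 and 2 promoters, and a match describes letters in a window, not binding.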

How the data were processed

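H3K27ac was measured by ChIP-seq in 4 cell lines, with 1 library per line. Per the labels, the authors aligned reads to hg19 by Bowtie2 2.1.0 and ran MACS2 2.1.0.20150603 for narrow peaks. The study gives a q-value below 0.001 and merging of peaks within 350 bp, but closer neighbours remain in the deposited lists, and peaks were used as they are. The deposited score is 10 times the −log10 q as a whole number. The deposited fold enrichment over local background, −log10 p and −log10 q were computed by the authors' peak caller within each library. The deposited summit offset gave the summit position. None of these values is scaled between libraries, so libraries were compared by overlap and by rank within a list. Background here means the tags expected at a summit, and pileup the tags found there.

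Genes and starts came from GENCODE 44 lifted to GRCh37, the build of the peaks. A peak marked a gene when at least 1 bp lay in a window. The tag pileup and background at a summit were recovered from the fold and the −log10 p as the whole pileup whose Poisson p matched within 0.001, which succeeded at 99.9% of OVCAR-3 and 100% of SKOV-3 peaks. Tag numbers were estimated as the smallest background times 2700000000 positions over the narrowest peak width. They are estimates, and depth sets which weak sites pass the threshold. The recovery and the marking were checked on simulated data. No test was run, since no line has replicates.

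The genes, gene lists and comparison were chosen with earlier results of these data known. Genes named are list members, the 10 in both lines with the highest rank in the weaker line, the 15 of each single-line class with the highest −log10 q and no peak of the other line within 5 kb, up to 10 SKOV-3-only genes at any distance, and the 5 largest rank differences each way. List symbols were matched also by older names, and 6 were not found. Values of a few list members, which the counts include, are not reported here. The alternatives were a window of 500 bp or 2 kb, protein-coding transcripts, 1 start per gene, summits, stricter thresholds, equal numbers of peaks, the SKOV-3 tag number, merging, and leaving out shared windows, chromosomes 3 and 19 or, chosen after seeing the data, chromosome 7. Python 3.11.15, numpy 2.4.6, pandas 2.3.3, scipy 1.17.1 and matplotlib 3.10.9 were used.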

Additional observations from a re-analysis of the deposited data

How the results depend on the processing

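Under 13 alternatives the class counts stayed within 1.5 times the reported ones, with 4 exceptions. A −log10 q of at least 10 left 172 SKOV-3-only genes, as fewer peaks remained. Equal numbers of peaks, for which OVCAR-3 peaks below a −log10 q of 30.3 were dropped, gave 2560 OVCAR-3-only and 1307 SKOV-3-only genes. There 1023 genes marked in both became SKOV-3 only, and the genes marked in neither rose from 7117 to 10432. Leaving out genes that share a window gave 3758 genes marked in both, since 14186 of the 19229 remained. Merging changed no class. Of the list counts, 868 kept their value within 1.5 times and 107 moved. Of the 296 named genes, 245 to 292 kept their class under the alternatives other than merging that scored all of them. The fewest were at a −log10 q of at least 10, then 248 with equal numbers of peaks and 257 with 1 start per gene. FN1, AKR1B1, COL3A1, SPARC, THY1, CA9, SPINT1, DSP, KRT7 and HOXA10 were among those that changed with 1 start per gene, and PPARG, AXL, PAPLN, PRXL2C and SOCS6 among those that changed with equal numbers of peaks. No paired analysis was possible because each line has 1 library. Depth limits what a missing peak means, and its part in the classes was not tested beyond the estimated tag number of SKOV-3, at which 5706 genes were OVCAR-3 only.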

Other observations

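Further gene groups were divided as follows, each beside 61.5% of all genes marked in OVCAR-3 and 32.4% in SKOV-3. Of 18 YAP and TEAD pathway genes, which respond to cell density and tension, OVCAR-3 marked 17 and SKOV-3 13. AMOTL2, an angiomotin, had a fold of 29.1 in OVCAR-3 and 9.83 in SKOV-3, TEAD1 15.4 and 5.99, and WWTR1, which encodes TAZ, 16.4 and 5.91. CCN1, a matrix protein induced by YAP, had 10.6 in OVCAR-3 and no SKOV-3 peak. Of 30 TGF-beta pathway genes OVCAR-3 marked 27 and SKOV-3 18. SMAD7, an inhibitor of the pathway, had 7 promoter peaks in each line, with folds of 23.1 and 9.20, and the ligand TGFB2 was OVCAR-3 only with 8.75. Of 22 p53 targets OVCAR-3 marked 19 and SKOV-3 10, with MDM2, GADD45A and TNFRSF10B in both and FDXR, XPC and ZMAT3 in OVCAR-3 only. DU-145 marked 21 of them and COLO-205 12.

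Of 31 genes of glycolysis and the hypoxia response OVCAR-3 marked 24 and SKOV-3 19. ENO1, an enolase, had folds of 22.4 and 11.2, and PKM, pyruvate kinase, 14.0 and 8.02. CA9, a carbonic anhydrase induced by hypoxia, and PFKP, a phosphofructokinase, were SKOV-3 only, with a −log10 q of 7.97 and 9.09. Of 22 NRF2 targets OVCAR-3 marked 17 and SKOV-3 10. NFE2L2, which encodes NRF2, had folds of 11.2 and 8.11, while GCLC and GCLM, the subunits of the enzyme that starts glutathione synthesis, were OVCAR-3 only. Of 35 interferon response and HLA class I genes OVCAR-3 marked 19, SKOV-3 15 and DU-145 28. With equal numbers of peaks 9 of them were marked in both, 2 in OVCAR-3 only and 6 in SKOV-3 only, so the order of the lines turned. The shares of all genes there were 25.6%, 13.3% and 6.80%. At the authors' threshold HLA-C was marked in both with a −log10 q of 63.8 and 14.6, near the medians of 66.7 and 14.2 over genes marked in both. MX1, an antiviral GTPase, was OVCAR-3 only with a −log10 q of 85.1.

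Of 64 replication-dependent histone genes matched by older symbol, 19 were marked in both lines, 22 in OVCAR-3 only and 6 in SKOV-3 only. These are 29.7%, 34.4% and 9.38%, beside 31%, 30.6% and 1.48% of all genes. At a −log10 q of at least 10, 2 were SKOV-3 only (3.1%, beside 0.894% of all genes). With equal numbers of peaks 13 were OVCAR-3 only and 7 SKOV-3 only, or 20.3% and 10.9%, beside 13.3% and 6.80% of all genes. At the authors' threshold the 6 included H2BC3 with a −log10 q of 20.4 and H1-5 with 14.2. H2BC6, which this match left out, was SKOV-3 only too. These genes are near-identical copies, and reads between them can be misplaced. Of 53 protocadherin genes OVCAR-3 marked 1 and SKOV-3 3, beside 21 in COLO-205 and 14 in DU-145. Of 55 keratins OVCAR-3 marked 11 and SKOV-3 7. With equal numbers of peaks 5 keratins were marked in both, 0 in OVCAR-3 only and 2 in SKOV-3 only, beside 25.6%, 13.3% and 6.80% of all genes. Of 413 olfactory receptors, which are mostly silent outside the nose, OVCAR-3 marked 3, SKOV-3 2, COLO-205 14 and DU-145 5.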
